A study of Mus musculus with 10 samples.

Results

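The genes described here are the small nucleolar RNAs (snoRNAs) and small Cajal body RNAs (scaRNAs) of mouse liver. They were chosen by name, as probe sets of the array whose single gene symbol begins with Snord, Snora or Scarna followed by a digit, and where a gene had several such probe sets the one of highest mean intensity over the 10 arrays stood for it. The measured value that chose a probe set was therefore its mean over both genotypes. The group of genes itself was picked with earlier results of these data known. The rule found 54 genes among the 19933 genes tested, of which 31 were C/D box snoRNAs (Snord), 20 were H/ACA box snoRNAs (Snora) and 3 were scaRNAs. Snora3 and Snora21 had 2 probe sets each, and the other members had 1.

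The study measured RNA in the liver of mice without Nr1d1, the gene of the nuclear receptor Rev-erb alpha, a heme-binding repressor of the circadian clock, and of wild-type mice. The mutant animals were 5 Rev-erb alpha -/- males (KO), which carry the null allele in every tissue and were backcrossed to C57Bl/6 for at least 7 generations. They were compared with 5 C57Bl/6 wild-type males (WT) that were bought, so genotype and origin of the mice cannot be told apart in any value given here. All mice were 10 to 12 weeks old, ate normal chow and were kept on a cycle of 12 h light and 12 h dark, and died at zeitgeber time 10, late in the light phase. The RNA of each liver went onto an Affymetrix Mouse Gene 1.0 ST array of its own.

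SnoRNAs are short RNAs of the nucleolus that guide chemical changes onto ribosomal RNA. C/D box snoRNAs work with fibrillarin, Nop56, Nop58 and Snu13 and direct methylation of the ribose. H/ACA box snoRNAs work with dyskerin, Gar1, Nhp2 and Nop10 and direct the change of uridine to pseudouridine. ScaRNAs guide chemical changes of these kinds onto spliceosomal RNAs in Cajal bodies. A few snoRNAs, such as U8 (Snord118), U14 (Snord14), U17 (Snora73) and U22 (Snord22), are needed for cleavage of the ribosomal RNA precursor. Most mammalian snoRNAs have no promoter of their own: they are cut out of an intron of a host gene, often one for a ribosomal protein or a long noncoding RNA, after splicing.

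Values are log2 of the deposited normalized intensity, and differences are KO minus WT on that scale with the standard error (SE) of limma's fit across all genes. A gene was called at a limma adjusted p under 0.05 over the 19933 genes. Array medians ran from 156 to 165 intensity units, and 1119 genes were called, or 5.61% of all tested. As a check of the genotype, the probe set of Nr1d1 averaged 9.92 ± 0.45 in KO livers and 9.78 ± 0.16 in WT livers (SD, n = 5 each), with an adjusted p of 0.80. It therefore did not separate the genotypes, and the sources used here do not give where its probes lie relative to the null allele. Arntl, a clock gene that Rev-erb alpha represses, averaged 9.43 ± 0.29 in KO livers and 7.30 ± 0.24 in WT livers, a difference of 2.13 (adjusted p = 3.22e-06). None of the 10 hepatocyte markers was called or had an unadjusted limma p under 0.05, and Sox9, a cholangiocyte marker with a difference of 0.62 (adjusted p = 0.013), was the only called gene among the markers of the 7 other cell types looked at. Of 8 liver endothelial markers 7 were above 0, with a median of 0.16, and Stab2 (0.20) and Clec4g (0.21) had an unadjusted limma p under 0.05. At that threshold the stellate cell markers Lrat (-0.59) and Colec11 (-0.14) and the erythroid marker Tfrc (-0.52) were lower and the lymphocyte marker Cd79a (0.18) was higher. The part of other cell types in the results below was not tested.

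In KO livers 9 of the 54 snoRNA and scaRNA genes were lower and 0 were higher at the threshold, while 45 were not called. The called share was 16.7%, against 2.44% of all genes called lower in KO and 3.17% called higher. Because the group was picked with earlier results of these data known, the shares in this paragraph describe it and are no independent test. In whole liver, fewer cells of a type and less RNA per cell cannot be told apart. The 9 were Snord118, Snord33, Snord49b, Snord42a, Snora21, Snord47, Snord35b, Snord82 and Snord35a. The difference was below 0 for 47 members, or 87.0%, against 45.9% of all genes. The median difference of the members was -0.20, which is 86.8% of the WT level, and the quartiles were -0.31 and -0.11, while the median over all genes was 0.01. At an unadjusted p under 0.05, 29 members (53.7%) were lower in KO, against 8.4% of all genes, and 1, Snord87, was higher. Most differences were small: 2 members, Snord118 and Snord14e, differed by at least 1.5-fold.

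**Figure D1:**
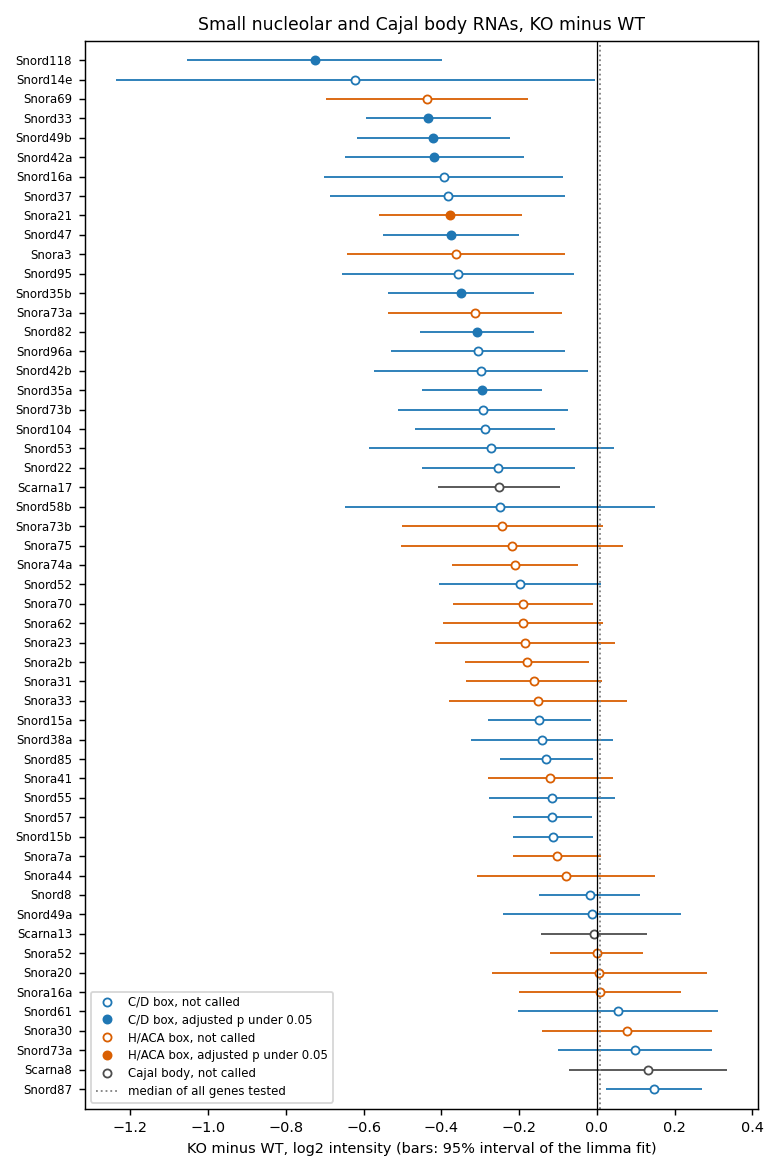
Each row is 1 of the 54 members, and the horizontal axis is its KO minus WT difference in log2 intensity with the 95% interval of the limma fit. Filled points mark the 9 called members, which all lie left of 0, and the dotted line is the median over all genes (0.01).

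C/D box snoRNAs made up most of the called members. Of the 31, 28 had a difference below 0 and 8 were called lower, with a median of -0.29. Among the 20 H/ACA box snoRNAs 17 were below 0 and 1, Snora21, was called, with a median of -0.18. The 3 scaRNAs had a median of -0.01 and none was called, with 1 at an unadjusted limma p under 0.05. The difference between the classes was not tested.

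Snord118, the U8 RNA that is needed to make the large-subunit ribosomal RNAs, had the largest difference of the members. It had 6.84, 6.36, 6.99, 6.68 and 7.20 in KO livers, against 7.42, 7.32, 7.35, 7.76 and 7.86 in WT livers. All 5 KO livers lay below all 5 WT livers. The difference was -0.73 (SE 0.15, limma adjusted p = 0.0136), or 60.4% of the WT level. Snord118 was also the only member that lay inside no RefSeq gene. As background, it is transcribed from a promoter of its own in mammals.

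Snord33 and Snord35a both sit in introns of Rpl13a, a gene for a protein of the large ribosomal subunit. As background, the snoRNAs of the Rpl13a introns are known from hamster cells and mice as mediators of the stress response to excess saturated fatty acid. Snord33 had 7.67, 7.46, 7.53, 7.72 and 7.81 in KO livers, against 8.02, 8.25, 8.10, 7.99 and 8.0 in WT livers. Snord35a had 9.95, 9.62, 9.78, 9.87 and 9.96 in KO livers, against 10.12, 10.26, 10.15, 10.12 and 10.01 in WT livers. For both, every KO liver lay below every WT liver. The difference was -0.43 for Snord33 (SE 0.07, adjusted p = 0.00417) and -0.30 for Snord35a (SE 0.07, adjusted p = 0.029). Leaving out 1 liver in turn kept the call of Snord33 each time, with an adjusted p of at most 0.0131, and ended that of Snord35a in 6 of 10 cases, without KO replicate 2, 3 or 4 or WT replicate 1, 2 or 3 (adjusted p up to 0.0735). Snord35b, another C/D box snoRNA, had 8.47, 8.26, 8.27, 8.60 and 8.38 in KO livers, against 8.52, 8.90, 8.66, 8.75 and 8.89 in WT livers. KO replicate 4 lay above WT replicate 1, so its groups overlapped. Its difference was -0.35 (SE 0.09, adjusted p = 0.0343), and 7 of the 10 fits without 1 liver ended the call, those without KO replicate 2, 3 or 5 or WT replicate 2, 3, 4 or 5 (adjusted p up to 0.086).

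Snord49b lies in the long noncoding gene 2410006H16Rik. It had 9.81, 9.67, 9.78, 9.86 and 10.08 in KO livers, against 10.15, 10.55, 10.12, 10.20 and 10.28 in WT livers. The groups did not overlap, and the difference was -0.42 (SE 0.09, adjusted p = 0.0165). Snord49a, in the same host gene, averaged 6.38 ± 0.18 in KO livers and 6.39 ± 0.21 in WT livers, a difference of -0.01 (adjusted p = 0.977). Snord47, in the long noncoding host gene Gas5, had 8.23, 8.10, 8.13, 8.36 and 8.24 in KO livers, against 8.58, 8.84, 8.36, 8.57 and 8.60 in WT livers. Only KO replicate 4 and WT replicate 3, both at 8.36, met, and the difference was -0.38 (SE 0.08, adjusted p = 0.0163).

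Snord42a, from the ribosomal protein gene Rpl23a, had 7.29, 7.34, 7.38, 7.74 and 7.77 in KO livers, against 7.92, 8.04, 7.76, 7.79 and 8.10 in WT livers. KO replicates 1 to 3 stood lowest, and KO replicate 5 reached above WT replicate 3. The difference was -0.42 (SE 0.11, adjusted p = 0.0379), and 6 of the 10 fits without 1 liver ended the call, those without KO replicate 1, 2 or 3 or WT replicate 1, 2 or 5 (adjusted p up to 0.0941). Snord82, in an intron of Ncl, the gene of the nucleolar protein nucleolin, had 10.95, 10.72, 10.69, 10.91 and 10.94 in KO livers, against 11.13, 11.20, 11.07, 11.29 and 11.06 in WT livers. Its groups did not overlap, and the difference was -0.31 (SE 0.07, adjusted p = 0.0187, or 0.0505 without KO replicate 2).

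Snora21, a pseudouridine guide from an intron of Rpl23, was the only called H/ACA box member. It had 9.05, 9.08, 8.89, 9.13 and 9.18 in KO livers, against 9.49, 9.69, 9.42, 9.18 and 9.44 in WT livers. WT replicate 4 lay level with KO replicate 5, and the other WT livers stood above all KO livers. The difference was -0.38 (SE 0.08, adjusted p = 0.0206, or 0.0512 without KO replicate 3). The dimmer probe set of Snora21 averaged 6.90 in KO livers and 7.16 in WT livers, a difference of -0.27 (adjusted p = 0.165 in a limma fit over all probe sets).

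**Figure D2:**
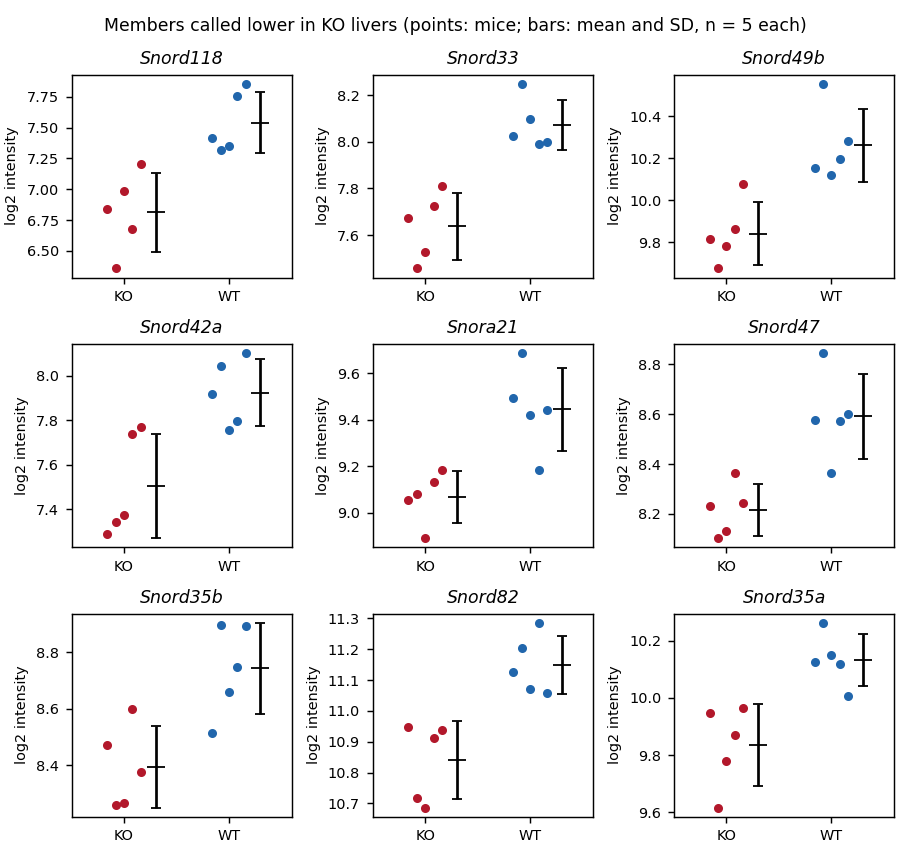
Each panel shows 1 of the 9 called members, with log2 intensity on the vertical axis, 1 point for each liver, and the mean and SD of the 5 KO livers on the left and the 5 WT livers on the right. The scale differs between panels, and KO and WT points do not overlap for Snord118, Snord33, Snord49b, Snord82 and Snord35a.

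Every KO liver lay below every WT liver for 9 members (16.7%), against 3.02% of all genes. Besides the 5 called ones just named these were Snora69, Snord104, Scarna17 and Snord15b, none of which was called. Snora69, in the ribosomal protein gene Rpl39, had 7.88, 7.79, 7.38, 7.91 and 7.86 in KO livers, against 8.16, 8.54, 8.03, 7.96 and 8.31 in WT livers. KO replicate 3 stood far below the other KO livers. The difference was -0.44 (SE 0.12, adjusted p = 0.0548), and without WT replicate 4 it was -0.50 (adjusted p = 0.0338). Leaving out another liver gave a limma adjusted p up to 0.117. Snord104 had 13.00, 12.76, 13.05, 13.06 and 13.03 in KO livers, against 13.11, 13.27, 13.10, 13.47 and 13.39 in WT livers. It was the brightest probe set of the members, and its difference was -0.29 (SE 0.08, adjusted p = 0.0677). Snord15b differed by -0.11 (adjusted p = 0.235), from a narrow spread of 0.02 among the KO livers (SD).

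Snord14e and Snord37 had large differences, varied widely between livers and were not called. Snord14e, a copy of the U14 RNA in the heat-shock gene Hspa8, had 9.90, 10.30, 10.34, 10.54 and 9.98 in KO livers, against 10.93, 10.63, 11.34, 9.70 and 11.57 in WT livers. WT replicate 4 was the lowest of all 10 livers, and the other 4 WT livers stood above all KO livers. The difference was -0.62 (SE 0.28, adjusted p = 0.284), and without WT replicate 4 it was -0.91 (adjusted p = 0.0137). Leaving out another liver gave a limma adjusted p up to 0.508. Snord37, in the gene of translation elongation factor Eef2, had 6.46, 6.57, 6.55, 7.20 and 7.01 in KO livers, against 7.01, 7.37, 7.25, 6.92 and 7.15 in WT livers. KO replicates 4 and 5 lay within the WT range and the other 3 below it. The difference was -0.38 (SE 0.14, adjusted p = 0.154), and without KO replicate 4 it was -0.49 (adjusted p = 0.0423). With another liver left out the limma adjusted p reached 0.309. Snord16a, in Rpl4, had a difference of -0.39 (SE 0.14, adjusted p = 0.149). Both probe sets of Snora3, in Rpl27a, were low without a call, at -0.36 and -0.25. The 18 members whose differences are given nowhere else lay between -0.27 for Snord53 and -0.02 for Snord8, all below 0, with adjusted p-values from 0.142 to 0.935.

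Among the RNAs needed for cleavage of the ribosomal precursor, Snord118 alone was called. Snora73a and Snora73b, the U17 copies in Snhg3, differed by -0.31 and -0.24 (adjusted p = 0.109 and 0.328). Snord22, the U22 RNA in Snhg1, averaged 6.35 ± 0.19 in KO livers and 6.61 ± 0.12 in WT livers, a difference of -0.25 (adjusted p = 0.147). Where copies such as Snora73a and Snora73b share sequence, array probes cannot tell them apart, so their values may not be independent.

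The scaRNAs had no common direction. Scarna17 had 11.05, 11.08, 11.08, 11.03 and 11.0011 in KO livers, against 11.09, 11.27, 11.19, 11.49 and 11.45 in WT livers. The KO livers lay close together, below all WT livers, and the difference was -0.25 (SE 0.07, adjusted p = 0.0668). Without WT replicate 1 it was -0.30 (adjusted p = 0.0214), while leaving out another liver gave a limma adjusted p up to 0.143. Scarna13, the U93 RNA in Snhg10, averaged 8.50 ± 0.04 in KO livers and 8.51 ± 0.13 in WT livers, and the sign of its difference turned in 4 of the alternative fits. Scarna8, the U92 RNA in Haus6, averaged 6.19 ± 0.09 in KO livers and 6.05 ± 0.22 in WT livers, a difference of 0.13 (adjusted p = 0.57).

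A difference above 0 was found in 7 members, none of them called. The largest was that of Snord87, in the long noncoding gene Snhg6, which had 5.75, 5.55, 5.52, 5.57 and 5.6 in KO livers, against 5.50, 5.51, 5.33, 5.39 and 5.52 in WT livers. It was the only member with every KO liver above every WT liver, a pattern found in 3.99% of all genes. Its difference was 0.15 (SE 0.06, adjusted p = 0.192), and it was among the dim members described next. Snord73a (0.10), Snora30 (0.08), Snord61 (0.05), Snora16a (0.01) and Snora20 (0.01) made up the rest after Scarna8, with adjusted p-values between 0.57 and 0.99. The last 4 of these named turned below 0 in at least 1 alternative fit. Of the brighter members, Snora52 in Rplp2 averaged 11.67 ± 0.09 in KO livers and 11.67 ± 0.07 in WT livers. Snora7a in Rpl32 had a difference of -0.10 (adjusted p = 0.347).

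The size of the difference went weakly with the brightness of the probe set. Across the 54 members, which share the 10 arrays, the Spearman correlation of mean level and difference was -0.26. In the dimmest 18 members the median difference was -0.16 with 1 call, in the middle 18 it was -0.24 with 3 calls, and in the brightest 18 it was -0.27 with 5 calls. For 8 members the mean level lay below the lower quartile of each of the 10 arrays. These 8 had a median difference of -0.13 and 0 calls, while the other 46 had a median of -0.25.

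The livers within each genotype were not alike in their snoRNA levels. The median log2 value of the 54 members was 7.87, 7.87, 7.77, 8.07 and 7.98 in KO livers, against 8.06, 8.32, 8.12, 8.01 and 8.21 in WT livers. KO replicate 4 lay within the WT range, and the other KO livers lay below all WT livers. Of the 54 members, 49 had their highest value in a WT liver, 24 of these in WT replicate 2 and 16 in WT replicate 5. The lowest value lay in a KO liver for 41 members, 18 of them in KO replicate 3 and 10 in KO replicate 2. Without KO replicate 2, or without KO replicate 3, 5 members were called lower. KO replicates 4 and 5 and WT replicate 1 also had the widest spread of log2 values over all probe sets, with interquartile ranges from 2.96 to 2.99 against 2.80 to 2.94 in the other arrays. Without those 3 arrays 8 members were called lower and the median difference was -0.27. Of these 8, 5 were also called in the main fit, and Snord37, Snord42b and Snord73b were new. Snora21, Snord35a, Snord47 and Snord82 lost the call, so the count stayed similar while its members changed.

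**Figure D3:**
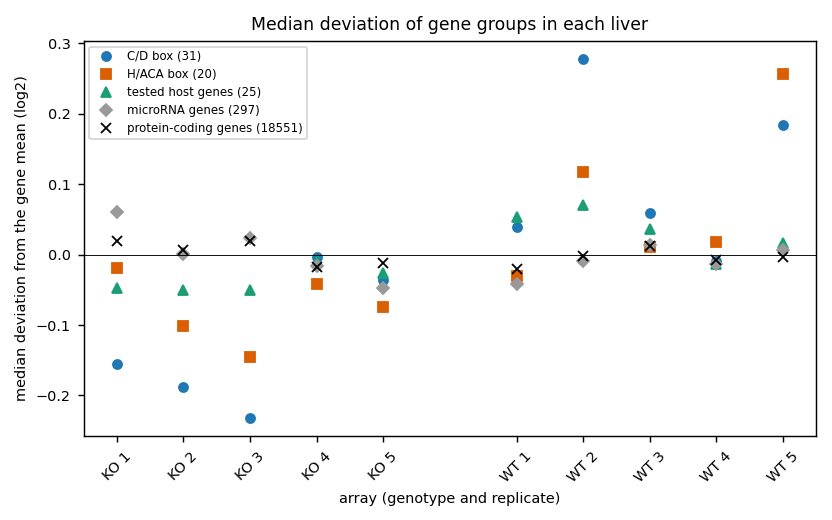
The horizontal axis lists the 10 livers, KO on the left and WT on the right, and the vertical axis is the median, over a group of genes, of the deviation from each gene's mean over all arrays (log2). C/D box snoRNAs ranged from -0.23 to -0.003 in KO livers and from -0.01 to 0.28 in WT livers, while protein-coding genes stayed between -0.02 and 0.02.

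Other RNA classes on the same arrays had medians near 0. Of 297 microRNA genes 0 were called lower and 2 higher, 8 were lower at an unadjusted limma p under 0.05, and the median difference was 0.01. Of 14 other short RNA genes 0 were called, 3 were lower at an unadjusted limma p under 0.05, and the median was -0.07. The 673 long noncoding RNA genes had a median of 0.02 with 7 called lower, and the 18551 protein-coding genes had a median of 0.01 with 466 called lower. Per the labels, RNA was purified on RNeasy columns after Trizol. As background, such columns retain little RNA of snoRNA length, and whether the probe sets read mature snoRNA or intron sequence of the host transcripts was not tested.

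Host genes were then set beside their snoRNAs. By position in the RefSeq gene table, 53 of the 54 members lay inside another gene and belonged to 43 host genes. Ribosomal protein genes held 21 members, of which 20 were below 0 and 5 were called lower, with a median of -0.25. Long noncoding genes held 14, of which 12 were below 0 and 2 were called, with a median of -0.23. Other protein-coding genes held 18, of which 14 were below 0 and 1 was called, with a median of -0.17. Of all members 87.0% were below 0 and 16.7% were called lower, against 45.9% and 2.44% of all genes. The difference between the kinds of host was not tested.

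A host with a probe set of its own was measured for 29 members, which share 25 hosts. Where a host had several probe sets, the brightest stood for it. Whether that set reads the transcript that holds the member was not tested. The 10 probe sets of Rpl23a, for instance, had differences from -0.20 to 0.43. Of these 25 host genes 22 (88%) had a difference below 0, against 45.9% of all genes, with a median of -0.08. Nop56 was the only one called (4%), against 2.44% of all genes called lower. The 10 ribosomal protein hosts were all below 0, between -0.23 for Rpsa, of which WT replicate 5 stood far above the other WT livers, and -0.02 for Rps3a1, and 0 were called, with 1 at an unadjusted limma p under 0.05. Dimmer probe sets gave other results in a limma fit over all probe sets. A dimmer set of Rpsa was at -0.19 (adjusted p = 0.0137) and another at -0.21 (adjusted p = 0.0168). A dimmer set of Rps12 was at -0.24 (adjusted p = 0.0177). In the other direction, a dimmer set of Rpl23a was at 0.43 (adjusted p = 0.0584), and dimmer sets of Rpl27a lay on both sides of 0. Rps3a1 turned above 0 without WT replicate 1 and without the 3 arrays of widest spread. At an unadjusted limma p under 0.05, 5 of the 25 hosts were lower (20%), against 8.4% of all genes. In 22 of the 29 pairs the member's difference lay below its host's, and the median of member minus host was -0.10. An exact two-sided permutation test over all assignments of livers to genotypes was run on each pair, with Benjamini-Hochberg adjustment over the 29. A single pair could not have passed, since at least 5 pairs would have had to reach the smallest possible p together. No pair passed: 4 had an unadjusted p under 0.05, and the smallest adjusted p was 0.23.

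The pair of smallest p was Snord47 and Gas5, with an exact permutation p of 0.00794, the smallest that 5 against 5 livers allow. Snord47 lay 0.39 below Gas5 in the difference of differences. This rests on the brightest of 4 Gas5 probe sets, at 0.01. The dimmer sets differed by -0.38, -0.38 and -0.60, beside -0.38 for Snord47 itself, so the gap is not seen with them. Single dimmer sets were not paired with Snord47 in the test. Snora21 lay 0.29 below Rpl23 (exact permutation p = 0.0159), and Rpl23 itself differed by -0.08. Snord15b lay 0.07 below Rps3 (exact permutation p = 0.0476). In Scarna8 and Haus6 the order was the opposite, with the scaRNA 0.24 above its host (exact permutation p = 0.0476). Snord82 and its host Ncl were both below 0, at -0.31 and -0.12. Snord14e stood at -0.62 and Hspa8 at -0.17, with an exact permutation p of 0.206. Across the 29 pairs, which share arrays and in part hosts, the Spearman correlation of the 2 differences was 0.20 and the Pearson correlation 0.16.

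**Figure D4:**
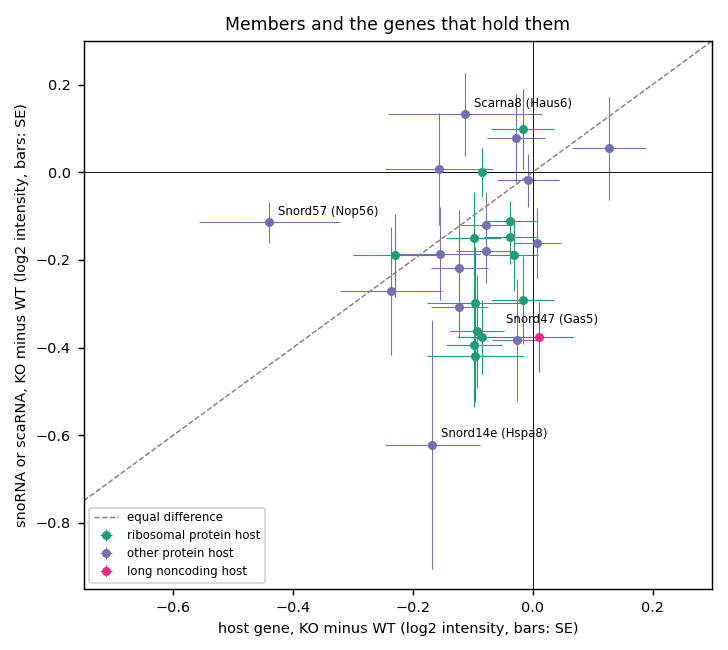
Each point is 1 of the 29 pairs, with the host's KO minus WT difference on the horizontal axis and that of the snoRNA or scaRNA on the vertical axis (log2 intensity, bars are the SE of the fit). Most points lie in the lower left quadrant, where both are below 0 (22 pairs), and 22 lie below the dashed line of equal difference.

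The value of Gas5 depended on the probe set. Gas5 is a long noncoding RNA gene whose introns carry many C/D box snoRNAs, and 4 probe sets named it alone. The brightest, which stood for the gene, averaged 9.71 in KO livers and 9.70 in WT livers (difference 0.01, adjusted p = 0.965 in a limma fit over all probe sets). Another had 8.85, 8.73, 8.77, 9.01 and 8.87 in KO livers, against 9.23, 9.45, 9.15, 9.11 and 9.19 in WT livers. Its groups did not overlap, and the difference was -0.38 (adjusted p = 0.0083 in the same fit). The other 2 differed by -0.38 and -0.60 (adjusted p = 0.218 and 0.251). The sources used here do not say which parts of Gas5 each probe set covers. The sign of the brightest turned in 8 alternative fits, to values between -0.05 and -0.00 except with the mean of the probe sets (-0.34).

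**Figure D5:**
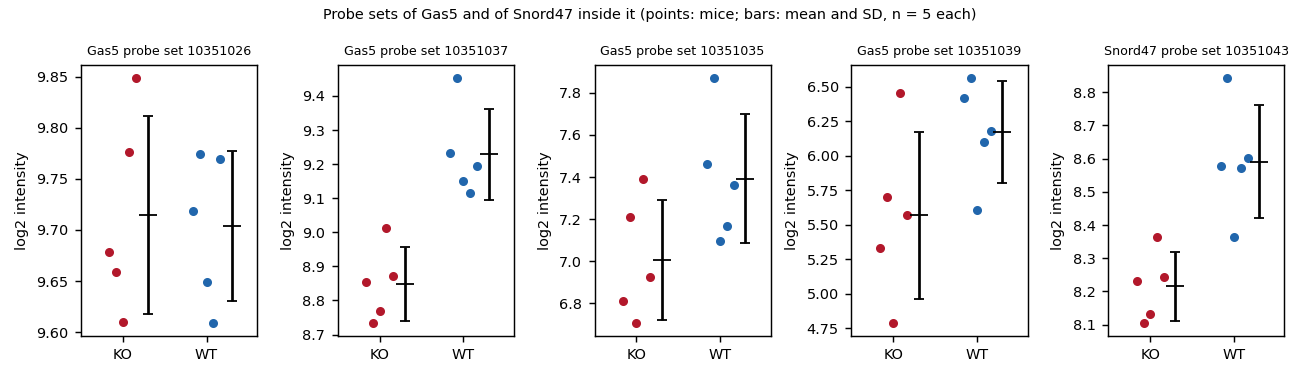
The first 4 panels show the probe sets of Gas5 and the last that of Snord47, with log2 intensity on the vertical axis, 1 point for each liver, and the mean and SD of 5 KO livers on the left and 5 WT livers on the right. The scale differs between panels: the brightest Gas5 set overlaps between genotypes, while the second Gas5 panel has all KO points (8.73 to 9.01) below all WT points (9.11 to 9.45).

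Among members that share a host, 10 hosts held 2 each. In 8 of them both members were below 0, where 87.0% of all members were below 0, so this count shows nothing of the host. In Rpl13a both were called. Snord95 and Snord96a, in the gene of the ribosomal scaffold protein Rack1, differed by -0.36 and -0.31 (adjusted p = 0.183 and 0.118). Snord42b differed by -0.30 beside the called Snord42a in Rpl23a (adjusted p = 0.24). Members of Rps3a1 parted, with Snord73b at -0.29 and Snord73a at 0.10, and so did those of 2410006H16Rik described above. The differences within a host were not tested.

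Promoter windows of the hosts are shown because an intronic snoRNA is transcribed from the promoter of its host. RefSeq windows (assembly GRCm38.p6) were at hand for 33 of the 43 hosts. The stretch from 120 bases before to 20 bases after the start is printed for 4 hosts of called members in whose window a marked word was found, with capitals for a run of at least 6 pyrimidines that begins between 5 bases before and 10 after the start, as ribosomal protein genes have, or for the E-box CACGTG, the letters that Arntl and Clock bind. Rpl13a is at chr7:45128726-45128865 on the minus strand, 2410006H16Rik at chr11:62602757-62602896 on the plus strand, Rpl23 at chr11:97782420-97782559 on the minus strand, and the second listed start of Gas5 at chr1:161035046-161035185 on the plus strand. The stretches of Ncl, the host of Snord82, and of the first listed start of Gas5 held neither and are not shown.
Rpl13a: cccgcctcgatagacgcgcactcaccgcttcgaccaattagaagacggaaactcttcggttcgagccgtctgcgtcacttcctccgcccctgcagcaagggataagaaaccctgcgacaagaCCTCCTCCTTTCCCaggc
2410006H16Rik: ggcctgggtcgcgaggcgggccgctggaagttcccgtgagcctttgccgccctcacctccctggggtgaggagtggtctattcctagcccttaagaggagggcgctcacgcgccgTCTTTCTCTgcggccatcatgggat
Rpl23: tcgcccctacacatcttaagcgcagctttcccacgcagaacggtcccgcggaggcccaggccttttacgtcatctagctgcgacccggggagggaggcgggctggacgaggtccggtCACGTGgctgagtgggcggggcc
Gas5: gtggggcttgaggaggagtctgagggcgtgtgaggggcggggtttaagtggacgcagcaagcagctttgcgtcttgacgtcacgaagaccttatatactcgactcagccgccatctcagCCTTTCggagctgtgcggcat

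In windows of 300 bases, from 250 before to 50 after the start and read on both strands, AGGTCA, the core word of Rev-erb alpha binding sites, was found in 1 of 33 host genes (Rps3) and in 16.3% of all 32851 windows. The longer word TAGGTCA, which contains it, was found in 0 of 33 and in 2.61% of all windows. CACGTG was found in 6 host genes, Eef2, Gm36220, Ipo7, Rpl13a, Rpl23 and Wdr43, and in 7.15% of all windows. CCGGAAG, a word bound by factors of the ETS family, was in 12 of 33 and in 8.86% of all windows. The pyrimidine run at the start, read on the strand of the gene, was in 12 of 33 and in 12.8% of all windows. GGTCA, which both of the first words contain, was in 13 of 33 and in 40.5% of all windows, and GGAAGTG, which overlaps CCGGAAG in part, was in 4 of 33 and in 11% of all windows. TATAA was in 11 of 33 and in 24.9% of all windows. Of the pyrimidine words, CTTTCC was in 13 of 33 and in 26.6% of all windows, CTTTTCC in 5 and in 8.06%, and CTCTTTCC, which contains the first, in 2 and in 3.12%. In all 11 motifs were searched, no motif was tested against the members' differences, and a match in letters is not a bound site.

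The proteins that carry snoRNAs were looked at next. Of the C/D box core proteins, Nop56 was called lower in KO livers. It had 9.93, 10.06, 9.71, 10.09 and 9.89 in KO livers, against 10.59, 10.70, 10.34, 10.04 and 10.20 in WT livers. The difference was -0.44 (SE 0.12, adjusted p = 0.0492), and leaving out any 1 liver other than WT replicate 4 ended the call (adjusted p up to 0.118). Its own intronic snoRNA, Snord57, averaged 11.74 ± 0.06 in KO livers and 11.85 ± 0.05 in WT livers, a difference of -0.11 (adjusted p = 0.215). Snord57 lay 0.33 above Nop56 in the difference of differences, with an exact permutation p of 0.0794.

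Nop58, the partner of Nop56, averaged 7.93 ± 0.31 in KO livers and 8.58 ± 0.40 in WT livers. The difference was -0.64 (SE 0.19, adjusted p = 0.0694), and without WT replicate 4 it was -0.76 (adjusted p = 0.027). With another liver left out the limma adjusted p reached 0.161. Fbl, the methyltransferase fibrillarin, differed by -0.01 (adjusted p = 0.96), a sign that turned when KO replicate 3 or WT replicate 1 was left out or arrays were weighted, and Snu13 differed by -0.11 (adjusted p = 0.354). Of the 4 H/ACA core genes 0 were called and 1, Nhp2, had an unadjusted limma p under 0.05. Dkc1, the gene of the pseudouridine synthase dyskerin, differed by 0.08, Nhp2 by -0.16, Nop10 by -0.05 and Gar1 by -0.11.

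The wider machinery gave 1 call in 68 genes, where 5.61% of all genes were called. Among 14 measured genes of snoRNP assembly and transport 0 were called, with a median of -0.02, and among 12 genes of snoRNA processing and debranching 0 were called, with a median of -0.01. Of 12 Cajal body genes 0 were called, with a median of 0.07. At an unadjusted limma p under 0.05 these 3 lists had 2, 1 and 3 genes, where 3461 of all 19933 genes had such a p. The 2 assembly genes and the 1 processing gene were lower in KO, while the 3 Cajal body genes, Gemin2, Lsm10 and Terc, were higher. Of 30 genes of RNA polymerase I and ribosomal RNA processing 23 were below 0, with a median of -0.09, and Rrn3 was called. At an unadjusted limma p under 0.05, 6 of the 30 were lower (20%), against 8.4% of all genes, and 1 was higher. Rrn3, the factor that brings RNA polymerase I to ribosomal DNA, had 9.54, 9.78, 9.40, 9.65 and 9.67 in KO livers, against 10.56, 10.66, 10.46, 9.82 and 9.95 in WT livers. The groups did not overlap, and WT replicates 4 and 5 stood nearest to the KO livers. The difference was -0.68 (SE 0.15, adjusted p = 0.0191). It was no longer called without KO replicate 3 or without WT replicate 3 (adjusted p of at most 0.0525).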

How the data were processed

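Liver RNA of 5 KO and 5 WT mice, 1 mouse per array, was hybridized to Affymetrix Mouse Gene 1.0 ST arrays. The authors deposited a table of normalized intensity on a linear scale (8.93 to 18280) for 27541 probe sets. The submitters' processing notes name Partek and RMA but no version; RMA subtracts background, normalizes between arrays and summarises probes. No detection calls come with it, and precision is limited by the number of arrays.

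Probe sets were named through the platform annotation: 21631 had 1 symbol, 1317 several and 4593 none. Of the first kind, 21544 matched a RefSeq gene table (GRCm38.p6), and 0 symbols were updated. The probe set of highest mean stood for each of 951 genes with several, leaving 19933 genes. All 54 members matched, and 22 probe sets that name a snoRNA beside another gene were left out. log2 values were fitted with limma 3.58.1 (R 4.3.3; lmFit and eBayes, two-sided, no covariates), with Benjamini-Hochberg adjustment over all genes. The p-values rest on the spread between these mice alone. Hosts were genes that contain a member by position. The gene table holds no strand, so none was checked. A list of hosts written from general knowledge gave the same host for all 36 members that it covers and that lay in 1 gene, and it chose the host of 3 more, Snord47, Snord8 and Snord87, that lay in several.

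On simulated data of 19933 genes, the fit recovered 56%, 82%, 98% and 100% of genes changed by 0.3, 0.5, 1 and 1.5 (log2), with 6.15% false calls. The changed genes were drawn at random from all genes, with independent noise. In the real fit the median SE was 0.093 for the members and 0.064 for all genes, and recovery of members was not simulated on its own. The members, the gene lists and the hosts were chosen with earlier results of these data known. The genes named are the called members, the 8 lowest and the 8 highest differences (7 of these above 0), the 6 brightest members, the scaRNAs, their hosts, called genes of the related lists, Fbl, Dkc1, Nop56, Nop58, Nr1d1 and Arntl. Other genes were named after their values were seen. Alternatives were the mean of probe sets, all probe sets, filters on dim genes, centring, quantile normalization, array weights, a trended robust spread, and fits without each liver or without the 3 arrays of widest spread.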

Additional observations from a re-analysis of the deposited data

Results flagged for a closer look

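Single livers far from the others of their genotype were looked for with Dixon's test in all members, all measured hosts and the other genes with values of their own in the text, over 198 groups of 5 livers (99 genes), and 10 groups passed the 95% critical value of 0.71. Chance passes about 1 in 20 groups. Among the members, Snora69 was low in KO replicate 3, at 7.38 against 7.79 to 7.91 in the other KO livers. Snord104 was low in KO replicate 2, at 12.76 against 13.00 to 13.06. Snora62 was high in KO replicate 1, at 7.06 against 6.71 to 6.79. Among the hosts, Rbmx in KO replicate 1 was at 8.59 against 8.70 to 8.73 in the other KO livers, and Rpl27a in KO replicate 2 at 10.70 against 10.76 to 10.77. Rpsa in WT replicate 5 was at 10.88 against 10.50 to 10.56 in the other WT livers. Haus6 in WT replicate 3 was at 6.34 against 6.83 to 7.00, and Rplp2 in WT replicate 2 was at 7.60 against 7.75 to 7.80. Nop10 in KO replicate 5 was at 11.02 against 10.89 to 10.92 in the other KO livers, and Meg3 in WT replicate 1 was at 8.61 against 8.96 to 9.04 in the other WT livers.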

How the results depend on the processing

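No paired analysis was possible because the labels give no replicate numbers that KO and WT livers share. The median difference of the members stayed below 0 under all 19 alternatives, from -0.16 to -0.24 when 1 liver was left out, and 0 members were called higher in any. With 1 liver left out 5 to 11 members were called lower, and with array weights 14, against 9. Snord33, Snord49b and Snord118 kept the call in every setting that tested them, while Snord35a, Snord35b and Snord42a lost it in 7 of 19. Without the 3 arrays of widest spread 527 genes were called in all, against 1119. The 1 called host gene became 0 with medians centred, without those 3 arrays, with array weights and with all probe sets, and 0 to 1 with 1 liver left out. The 2 calls in the related lists became 1 with medians centred, with array weights and with all probe sets, 0 without the 3 arrays, and 0 to 6 with 1 liver left out. Signs turned for uncalled genes near 0. With 1 liver left out Fbl ran from -0.0313 to 0.0168, Gas5 from -0.0232 to 0.0366, Nr1d1 from -0.0175 to 0.295, Rps3a1 from -0.0461 to 0.016, Scarna13 from -0.0488 to 0.0422, Snora16a from -0.0599 to 0.0582, Snora20 from -0.0995 to 0.0899, Snora52 from -0.0382 to 0.0231 and Snord61 from -0.007 to 0.141. With array weights Fbl was 0.0078, Gas5 -0.012, Snora16a -0.0293, Snora52 0.0029 and Snord61 -0.0178. Without the 3 arrays Gas5 was -0.0516, Rps3a1 0.0064, Snora16a -0.0743, Snora20 -0.0182, Snora30 -0.003, Snora52 0.0296 and Snord61 -0.104. With medians centred Gas5 was -0.0012, Snora16a -0.0032 and Snora20 -0.0051. After quantile normalization Scarna13 was 0.0013 and Snora20 -0.0012, and with the mean of its probe sets Gas5 was -0.34. The cause of these changes was not tested. Without detection calls, how far the dimmest members stand above background is unknown.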

Other observations

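Probe sets that name a snoRNA together with another gene were outside the members and were not tested. Of these 22 probe sets 17 had a difference below 0, where 45.9% of all genes did. In 3 of the 22 every KO liver lay below every WT liver, a pattern found in 3.02% of all genes. The probe set of Snord34 and Rpl13a averaged 7.65 ± 0.14 in KO livers and 8.16 ± 0.14 in WT livers, a difference of -0.51, and that of Snord32a and Rpl13a averaged 10.67 ± 0.11 in KO livers and 10.94 ± 0.11 in WT livers (SD, n = 5 each). The third, of Snord68 and Rpl13, differed by -0.28. Both probe sets of Snord14c, Snord14d and Hspa8 were also low, at -0.70 and -0.62, beside -0.62 for Snord14e from the same gene. The 7 probe sets of the Snord116 cluster, snoRNAs best known from neurons and the Prader-Willi region, had a median difference of -0.02 and 4 below 0, while the other 15 had a median of -0.24 and 13 below 0.

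On a list of nuclear long noncoding RNAs 5 were measured: Malat1, Meg3, Rian, Xist and Airn. Malat1 (0.04), Xist (-0.06) and Airn (-0.06) were not called. Meg3 and Rian lie in the imprinted Dlk1-Dio3 region, whose transcripts hold further snoRNA clusters. Meg3 had 8.12, 8.17, 8.33, 8.66 and 8.57 in KO livers, against 8.61, 8.97, 9.04, 8.96 and 9.0 in WT livers. KO replicate 4 lay above WT replicate 1, and the difference was -0.54 (SE 0.11, limma adjusted p = 0.0142). Rian, in the same region, averaged 5.23 ± 0.10 in KO livers and 5.42 ± 0.05 in WT livers, a difference of -0.19 (adjusted p = 0.0666). Terc, the RNA of telomerase and a Cajal body RNA with an H/ACA domain, averaged 10.46 ± 0.07 in KO livers and 10.23 ± 0.13 in WT livers, a difference of 0.24 (adjusted p = 0.0505).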
